A study of Mus musculus with 30 samples.

Results

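The genes described here are the enzymes that add or remove acetyl and methyl groups on histones and other proteins, together with the SWI/SNF-type chromatin remodellers, in the mouse ovary before birth. Members were found by a rule on names: the gene symbol had to begin with Hdac, Kdm, Kmt, Setd, Smarc, Prmt or Sirt, followed by a digit for Hdac and by 1 to 8 for Kdm, and the probe set had to carry 1 symbol in the platform annotation. Kdm5d was left out. This gave 67 genes with 143 probe sets, of 36701 probe sets that are not array controls. RNA came from pooled embryonic ovaries of BL/6-129 mice at 11.5, 12.5, 14.5, 16.5 and 18.5 days post coitum (dpc), with 2 numbered samples at each age, each put on 3 types of Affymetrix array called A, B and C. The animals carried no stated mutation or treatment, so age is the only difference between the groups that the labels give, and gonads of 11.5 and 12.5 dpc were sexed by PCR for Sry. Whether the 2 samples of an age were separate pools is not stated, so p-values measure only how far these samples differ, which may be technical.

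Histones carry acetyl and methyl groups that mark open or closed chromatin. Lysine methyltransferases of the Kmt and Setd groups and arginine methyltransferases (Prmt) write methyl marks, the Kdm demethylases erase them, and the Hdac and Sirt deacetylases remove acetyl groups. SWI/SNF complexes, called BAF and PBAF in mammals, use the ATPase Smarca2 or Smarca4 to slide or evict nucleosomes, while Smarca1 and Smarca5 drive the ISWI remodellers. In the fetal ovary the female germ cells stop dividing mitotically, enter meiosis and pass through its prophase over these ages, while the supporting cells around them differentiate.

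Deposited values were signal intensities that the authors had scaled to a mean of 125 on each array, and no detection calls were used. Testing was limited to probe sets that had a signal of 50 or more in 2 or more samples. Of the members, 119 probe sets of 64 genes passed, and 24 did not, with signals from 0.5 to 81.0. Those 24 were every probe set of Kdm1b, Kdm8 and Prmt5 and some of those of other members. The 9 deacetylases were Hdac1 to Hdac7 without gaps, Hdac9 and Hdac11, and the 5 sirtuins were Sirt1, Sirt2, Sirt3, Sirt5 and Sirt7. The 15 demethylases were Kdm1a, Kdm1b, Kdm2a, Kdm2b, Kdm3a, Kdm3b, Kdm4b, Kdm4c, Kdm5a, Kdm5b, Kdm5c, Kdm6a, Kdm6b, Kdm7a and Kdm8. The 17 Kmt and Setd genes were Kmt2a, Kmt2c, Kmt2d, Kmt2e, Kmt5a, Kmt5b, Kmt5c, Setd1a, Setd1b, Setd2 to Setd7, Setdb1 and Setdb2. The 8 Prmt genes were Prmt1, Prmt2, Prmt3 and Prmt5 to Prmt9, and the 13 Smarc genes were Smarca1, Smarca2, Smarca4, Smarca5, Smarcad1, Smarcal1, Smarcb1, Smarcc1, Smarcc2, Smarcd1, Smarcd2, Smarcd3 and Smarce1.

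Ages were compared with limma on log2(signal + 16), and an adjusted p under 0.05 (Benjamini-Hochberg over all 24825 tested probe sets) was called. Fold changes are also on that scale, and for dim probe sets they come out too small. Signals of different probe sets do not rank transcripts, and brightest below names only a probe set's signal. The main contrast set the 4 late samples (16.5 and 18.5 dpc) against the 4 early ones (11.5 and 12.5 dpc). In it 12 member probe sets of 10 genes were higher (10.1%, against 10.5% of all tested probe sets) and 11 of 11 genes were lower (9.24%, against 9.59% of all), so the members were called about as often as probe sets at large. The median log2 change was -0.03 over the members and -0.00 over all tested probe sets. The F test over the 5 ages called 12 member probe sets (10.1%), against 14.4% of all. Of the 64 tested genes, 25 were called in at least 1 comparison (39.1%, against 35.1% of all 12589 tested genes) and 39 in none. Member genes had a mean of 1.86 tested probe sets, against 1.62 over all genes, and so more chances of a call. The bars of the share called by comparison show the members beside all tested probe sets.

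**Figure D1:**
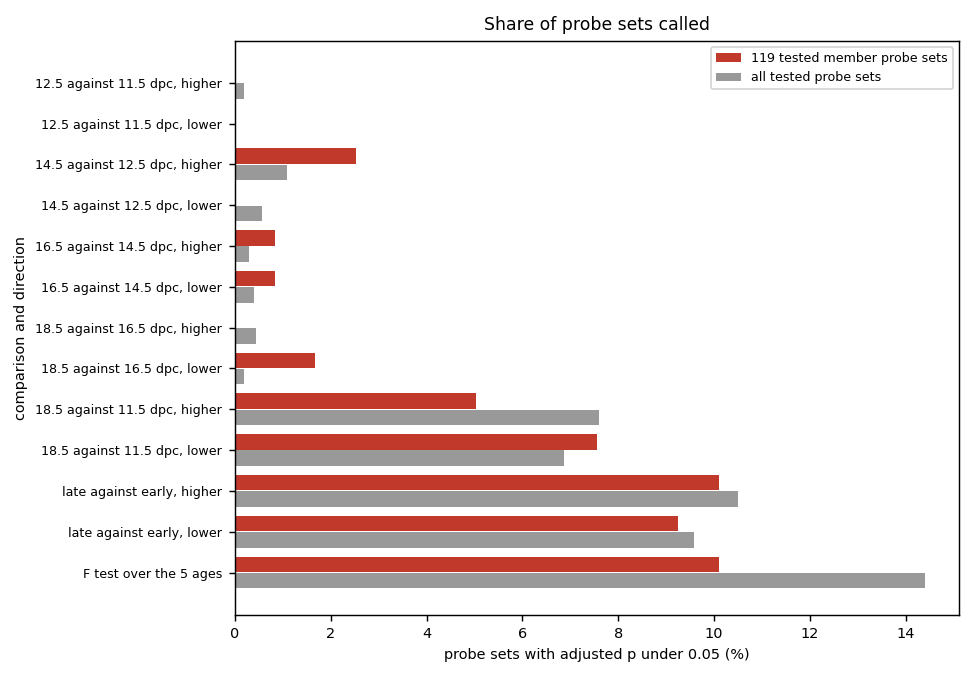
Share of probe sets with an adjusted p under 0.05 (x axis, percent) for each comparison and direction (y axis), with the 119 tested member probe sets in red and all 24825 tested probe sets in grey. In late against early the red and grey bars are nearly equal (10.1% and 10.5% higher, 9.24% and 9.59% lower), and in the F test red is shorter (10.1% and 14.4%).

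Signals of many cell type markers moved over the same ages. Each gene below was read from 1 tested probe set, the brightest one. Of 11 germ cell markers 8 were higher and 2 lower late, with a summed signal of 2004 to 5237 in late samples and 899 to 2610 in early samples. Of 6 proliferation markers all were lower (1931 to 2252 late, 3618 to 4832 early), and of 5 surface epithelium markers all were higher (2552 to 3769 late, 1024 to 1573 early). Pregranulosa markers had 5 higher and 2 lower of 9 (4499 to 6095 late, 3902 to 5376 early), mesenchyme markers 4 higher and 1 lower of 7 (3848 to 6696 late, 2184 to 3301 early), and endothelial markers 3 lower of 6 (504 to 707 late, 742 to 871 early). Erythroid markers had 1 higher and 3 lower of 5 (800 to 1020 late, 11878 to 15413 early). Macrophage markers had none called of 4 (304 to 366 late, 248 to 306 early), also at an unadjusted p under 0.05, and the same held for Lhx1, the tested mesonephros marker of 4 (12 to 50 late, 34 to 66 early). Among the testis markers Amh, Cyp17a1 and Insl3 did not pass the filter, while Sox9, read from a probe set with an added f in its suffix, was lower late (746 to 1047 late and 1054 to 1486 early for the sum of the 3 tested). The ratio of 3 prime to 5 prime Gapdh control signal was 0.917 to 1.09 in late samples and 0.829 to 0.845 in early samples. The part of these shifts in the results below was not tested, and in bulk RNA fewer cells of a type and less RNA per cell cannot be told apart.

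Among the deacetylases, 1 of 14 tested Hdac probe sets rose late and none fell (at an unadjusted p under 0.05, 2 higher and 2 lower), and 1 of 6 Sirt probe sets rose and none fell (2 higher and 1 lower unadjusted). Of all tested probe sets, 10.5% were called higher and 9.59% lower, and 16.9% were higher and 16.1% lower at that unadjusted threshold. The riser among the Hdac genes was Hdac6, a mainly cytoplasmic deacetylase of tubulin. Hdac6 gave signals of 168.5 and 245.1 at 11.5 dpc, 229.6 and 220.3 at 12.5 dpc, 255.2 and 312.3 at 14.5 dpc, 309.0 and 309.7 at 16.5 dpc, then 342.4 and 353.8 at 18.5 dpc. All 4 late samples lay above all 4 early ones, at 329 ± 22.9 late and 216 ± 33.2 early (SD, n = 4 each). Its log2 change was 0.58 ± 0.13 (SE, limma adjusted p = 0.0079). Hdac2, a class I nuclear deacetylase and the brightest Hdac on array A, had 871.3 and 943.9 at 11.5 dpc, 663.4 and 917.9 at 12.5 dpc, 671.6 and 625.5 at 14.5 dpc, 626.7 and 632.9 at 16.5 dpc, then 881.6 and 850.8 at 18.5 dpc. Its late and early samples overlapped, and the log2 change of -0.18 ± 0.12 did not pass the test (adjusted p = 0.3). Its class I partner Hdac1 had late signals of 242.2 to 276.8 and early signals of 252.3 to 313.3, with a log2 change of -0.12 ± 0.11 (adjusted p = 0.5).

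Sirt7, a nucleolar deacetylase that acts on histone H3 and supports ribosomal RNA synthesis, had the largest late-against-early change of any tested member. Its signals were 25.7 and 33.5 at 11.5 dpc, 26.6 and 24.4 at 12.5 dpc, 69.6 and 243.9 at 14.5 dpc, 245.3 and 173.3 at 16.5 dpc, then 210.8 and 152.5 at 18.5 dpc. Every sample from 14.5 dpc on lay above every earlier one, and the 2 samples of 14.5 dpc stood far apart. It averaged 195 ± 41.1 late and 27.6 ± 4.07 early (SD, n = 4 each), a log2 change of 2.26 ± 0.30 or 4.80-fold (adjusted p = 2.2e-04). The early signals are under the minimum of 50 that the filter asked of 2 arrays. The probe set thus passed only through samples from 14.5 dpc on, and the size of this fold depends on the 16 added before the log. The first step, 14.5 against 12.5 dpc, was called (log2 change 1.85 ± 0.43, adjusted p = 0.048). That call was lost on leaving out, one at a time, either sample of 12.5, 16.5 or 18.5 dpc or 14.5 dpc replicate 2 (adjusted p = 0.071 to 0.28). Sirt2, a tubulin and histone deacetylase and the brightest Sirt on array A, had 79.3 and 124.2 at 11.5 dpc, 107.8 and 94.3 at 12.5 dpc, 62.8 and 82.4 at 14.5 dpc, 127.9 and 137.1 at 16.5 dpc, then 53.9 and 52.2 at 18.5 dpc. Both samples of 18.5 dpc were the lowest of the 10. It fell between the last ages, with a log2 change of -1.10 ± 0.22 for 18.5 against 16.5 dpc (adjusted p = 0.048), and in 18.5 against 11.5 dpc (-0.74 ± 0.22, adjusted p = 0.039). The first of these was lost without any single sample of 12.5 to 18.5 dpc (adjusted p = 0.061 to 0.26), and the second without 11.5 dpc replicate 2 or either sample of 12.5, 16.5 or 18.5 dpc (0.055 to 0.21). Sirt2 was also called in the F test (adjusted p = 0.027), which was lost without 12.5 dpc replicate 1 or either sample of 16.5 or 18.5 dpc (0.056 to 0.098). The RefSeq promoter of Sirt7, from 250 bases before to 50 after the gene start, is shown because this gene changed most (chr11:120624965-120625264, GRCm38.p6, minus strand). Capitals in this and the promoters below mark letters that match, on either strand, 1 of 5 motifs found there: E2F (TTCCCGC), ETS (CCGGAAG), E-box (CACGTG), GC box (GGGCGG) and CCAAT box (CCAAT).
Sirt7: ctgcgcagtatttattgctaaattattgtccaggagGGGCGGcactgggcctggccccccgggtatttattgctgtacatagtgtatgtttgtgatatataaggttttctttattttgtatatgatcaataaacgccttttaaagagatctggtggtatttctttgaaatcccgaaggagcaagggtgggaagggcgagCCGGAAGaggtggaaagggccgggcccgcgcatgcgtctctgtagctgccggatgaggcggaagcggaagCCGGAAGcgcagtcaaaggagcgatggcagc
It held 2 ETS matches, at -51 and at 20 from the start, and 1 GC box at -214. Of 32851 promoters in the table, 8.86% hold the ETS letters, 35.7% the GC box, 37.4% the CCAAT box, 7.15% the E-box and 4.6% the E2F letters. The letters CNCCTCAG, known as the STRA8 motif, occur in 7.94% and in none of the 5 promoters shown.

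The methyltransferases of the Kmt and Setd groups had 5 probe sets higher and 2 lower late of 30 tested. Over all tested probe sets, 10.5% were higher and 9.59% lower. Kmt2c and Kmt2d encode related, large enzymes (MLL3 and MLL4) that methylate histone H3 lysine 4 at enhancers within otherwise similar complexes, and their transcripts were called in opposite directions. Kmt2c on array B gave 225.7 and 268.1 at 11.5 dpc, 341.8 and 318.7 at 12.5 dpc, 552.1 and 508.0 at 14.5 dpc, 738.0 and 674.0 at 16.5 dpc, then 926.3 and 942.9 at 18.5 dpc. The 2 samples of each age lay above both samples of the age before it. It averaged 820 ± 135 late and 289 ± 52 early (SD, n = 4 each), a log2 change of 1.46 ± 0.12 or 2.75-fold (adjusted p = 5.5e-06). Its probe set on array C, with 54.2 and 111.3, then 34.8 and 132.3, 187.7 and 208.6, 200.4 and 247.9, and 255.6 and 206.5 in age order, also had every late sample above every early one (log2 change 1.42 ± 0.33, adjusted p = 0.0099). Kmt2d gave 460.7 and 679.4 at 11.5 dpc, 534.5 and 520.7 at 12.5 dpc, 363.1 and 617.1 at 14.5 dpc, 394.8 and 288.6 at 16.5 dpc, then 362.8 and 352.0 at 18.5 dpc. Every late sample lay below every early one, at 350 ± 44.5 late and 549 ± 92.8 early (SD, n = 4 each; log2 change -0.62 ± 0.18, adjusted p = 0.029). The Kmt2d call was lost on leaving out singly 11.5 dpc replicate 2, either sample of 12.5 dpc, 16.5 dpc replicate 2 or either sample of 18.5 dpc (adjusted p = 0.074 to 0.12). The difference between the 2 genes was not itself tested. Kmt2a (MLL1), read by 2 probe sets of array A, had log2 changes of 0.20 ± 0.14 and -0.31 ± 0.15, neither past the test.

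The Kmt2c promoter is shown because this gene's rise kept its call under every setting tried (chr5:25498734-25499033, GRCm38.p6, minus strand).
Kmt2c: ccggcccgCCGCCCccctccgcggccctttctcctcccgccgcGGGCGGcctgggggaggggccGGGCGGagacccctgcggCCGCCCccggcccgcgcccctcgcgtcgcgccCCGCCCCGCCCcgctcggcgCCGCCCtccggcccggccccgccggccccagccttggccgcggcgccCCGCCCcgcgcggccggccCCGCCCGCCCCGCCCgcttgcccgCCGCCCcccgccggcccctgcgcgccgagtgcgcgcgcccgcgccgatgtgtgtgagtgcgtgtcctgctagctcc
It consisted of 88.0% G and C and held 12 GC boxes, some of them side by side or overlapping, and none of the other motifs.

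Setdb1 and Setdb2, which belong to the family that methylates histone H3 lysine 9, both had their highest mean at 14.5 dpc on their tested probe sets. Stra8, which is needed for meiotic entry, also had its highest signal at that age. It was added after its values were seen, and a link to the pair was not tested. Other members peaked then too, among them Hdac9, Kdm2b, Setd7 and both tested Sirt1 probe sets (means of 467 and 300), none called in the F test. Of the 12 member probe sets called in that test, 3 had their highest mean at 14.5 dpc. The share over all tested probe sets was not counted. Another Setdb1 probe set was too dim to be tested. Setdb2 gave 153.9 and 162.6 at 11.5 dpc, 169.1 and 153.2 at 12.5 dpc, 481.1 and 487.9 at 14.5 dpc, 356.7 and 332.8 at 16.5 dpc, then 161.5 and 129.8 at 18.5 dpc. The samples of 14.5 and 16.5 dpc lay above all others, and those of 18.5 dpc were back at the level of the first ages. It was 2.83-fold higher at 14.5 than at 12.5 dpc (log2 change 1.50 ± 0.20, adjusted p = 0.0014), a call kept under every setting tried. It was lower at 18.5 than at 16.5 dpc (-1.16 ± 0.20, adjusted p = 0.02), which was lost without either sample of 16.5 or of 18.5 dpc (0.071 to 0.2). Its late-against-early rise (0.46 ± 0.14, adjusted p = 0.035), in which the groups overlap, was lost without 11.5 dpc replicate 1, 18.5 dpc replicate 1 or either sample of 12.5 or 16.5 dpc (0.059 to 0.14).

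Setdb1 gave 197.7 and 192.3 at 11.5 dpc, 156.0 and 179.3 at 12.5 dpc, 264.4 and 405.3 at 14.5 dpc, 229.2 and 263.6 at 16.5 dpc, then 175.7 and 181.6 at 18.5 dpc. Its 2 samples of 14.5 dpc were the highest of the 10 but lay far apart, at 335 ± 99.6 (SD, n = 2). The rise at 14.5 against 12.5 dpc (log2 change 0.91 ± 0.20, adjusted p = 0.04) was lost without either sample of 12.5, 16.5 or 18.5 dpc or without 14.5 dpc replicate 2 (0.062 to 0.27). Its F test (adjusted p = 0.03) was lost without either sample of 12.5 or 18.5 dpc, 14.5 dpc replicate 2 or 16.5 dpc replicate 2 (0.058 to 0.11). Stra8 itself gave 699.2 and 496.4 at 14.5 dpc against 8.6 and 2.7 at 12.5 dpc. Their promoters are shown because the pair shared this time of highest signal (Setdb1 chr3:95357153-95357452, Setdb2 chr14:59440831-59441130, both GRCm38.p6, minus strand).
Setdb1: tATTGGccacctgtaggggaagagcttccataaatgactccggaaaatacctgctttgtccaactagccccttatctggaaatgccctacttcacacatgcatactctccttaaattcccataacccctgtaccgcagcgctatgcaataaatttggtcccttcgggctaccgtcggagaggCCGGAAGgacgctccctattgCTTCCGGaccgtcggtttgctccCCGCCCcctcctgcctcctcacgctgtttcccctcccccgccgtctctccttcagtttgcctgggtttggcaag
Setdb2: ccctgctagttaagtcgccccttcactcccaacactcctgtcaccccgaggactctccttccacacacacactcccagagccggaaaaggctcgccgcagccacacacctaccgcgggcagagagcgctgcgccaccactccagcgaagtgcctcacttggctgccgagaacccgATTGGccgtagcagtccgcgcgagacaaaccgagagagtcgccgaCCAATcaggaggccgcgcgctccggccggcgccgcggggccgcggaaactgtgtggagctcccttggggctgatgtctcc
Setdb1 held 2 ETS matches at -68 and -47, 1 GC box at -24 and 1 CCAAT box at -249, and Setdb2 held 2 CCAAT boxes at -75 and -30. The CCAAT box was the 1 motif found in both.

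Late against early, the other called members of these groups moved by under 2-fold. Kmt2e, a trithorax-related protein that binds methylated H3, gave on array C 274.9 and 232.0 at 11.5 dpc, 222.8 and 330.2 at 12.5 dpc, 241.0 and 224.7 at 14.5 dpc, 425.2 and 329.4 at 16.5 dpc, then 614.2 and 439.4 at 18.5 dpc. The late and early samples overlapped by 1 value each, and the log2 change was 0.72 ± 0.20 (adjusted p = 0.022). The call was lost without 11.5 dpc replicate 2, 12.5 dpc replicate 1, 16.5 dpc replicate 1 or 18.5 dpc replicate 1 (0.056 to 0.099). The Kmt2e probe set of array A, the brightest of the class there, had 328.9 and 273.4, then 271.0 and 277.2, 252.8 and 281.0, 331.5 and 368.0, and 287.0 and 279.7 in age order. It overlapped between late and early samples and did not pass (0.13 ± 0.11, adjusted p = 0.47), nor did 2 on array B (-0.21 ± 0.27 and 0.09 ± 0.23). Kmt5b, which methylates histone H4 lysine 20, gave 152.8 and 152.2, then 169.5 and 213.0, 176.4 and 224.2, 305.1 and 225.6, and 255.7 and 211.2 in age order. Its groups overlapped, since the lowest late signal lay just under the highest early one. Its log2 change of 0.50 ± 0.16 (adjusted p = 0.047) was lost without either sample of 11.5, 12.5 or 18.5 dpc or 16.5 dpc replicate 1 (0.062 to 0.16). Its 4 other tested probe sets were not called, with -0.16 ± 0.22 and -0.28 ± 0.19 on array B and 0.76 ± 0.33 and 0.78 ± 0.29 on array C. Setd5, a SET-domain protein of debated enzyme activity, gave on 1 of its 3 tested probe sets 1030.8 and 1046.5 at 11.5 dpc, 1266.2 and 1038.0 at 12.5 dpc, 873.0 and 1129.2 at 14.5 dpc, 860.3 and 579.4 at 16.5 dpc, then 655.3 and 619.8 at 18.5 dpc. There its late samples all lay below its early ones (679 ± 125 late, 1095 ± 114 early, SD, n = 4 each; log2 change -0.69 ± 0.16, adjusted p = 0.011), and the call was lost without 12.5 dpc replicate 1 (0.053). The other 2 had 0.41 ± 0.31 and 0.01 ± 0.30 and were not called, so no single direction can be given for Setd5.

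The arginine methyltransferases had 2 probe sets lower and 1 higher late of 10 tested, with a median log2 change of -0.31. Over all tested probe sets, 9.59% were lower and 10.5% higher, with a median of -0.00. Prmt1, the main enzyme of asymmetric arginine dimethylation, was the brightest of its class on array A and fell most firmly. It gave 1450.6 and 1623.2 at 11.5 dpc, 1783.6 and 1649.2 at 12.5 dpc, 1126.2 and 1196.3 at 14.5 dpc, 623.3 and 745.0 at 16.5 dpc, then 739.9 and 720.1 at 18.5 dpc. The 4 late samples lay below both samples of 14.5 dpc, which in turn lay below all early ones. It averaged 707 ± 56.9 late and 1627 ± 137 early (SD, n = 4 each), a log2 change of -1.18 ± 0.10 or 2.27-fold lower (adjusted p = 1.1e-05). The step at 16.5 against 14.5 dpc was called (-0.75 ± 0.15, adjusted p = 0.042) but was lost without any single sample of 12.5 to 18.5 dpc (0.069 to 0.17). Prmt6, which methylates histone H3 arginine 2, gave 361.9 and 501.4, then 434.6 and 341.2, 265.1 and 332.9, 244.0 and 224.3, and 174.2 and 180.8 in age order. All late samples lay below all early ones (206 ± 33.8 late, 410 ± 73 early, SD, n = 4 each; log2 change -0.94 ± 0.19, adjusted p = 0.004). Its probe set carries an s in its suffix, so it may not be specific to the gene, and its other tested probe sets had -0.53 ± 0.26 and -0.09 ± 0.28, neither called. Prmt9, a symmetric dimethyltransferase of a splicing factor, gave 258.7 and 240.3, then 245.6 and 257.5, 405.2 and 336.2, 365.0 and 390.8, and 309.6 and 320.1 in age order. Its late samples all lay above its early ones (0.44 ± 0.13, adjusted p = 0.031), and the call was lost without 11.5 dpc replicate 2 or either sample of 12.5, 16.5 or 18.5 dpc (0.052 to 0.095). Prmt2, Prmt3, Prmt7 and Prmt8 were tested and not called, and Prmt5, the main symmetric enzyme, was not tested.

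The Prmt1 promoter is shown because Prmt1 had the firmest fall (chr7:44986371-44986670, GRCm38.p6, minus strand).
Prmt1: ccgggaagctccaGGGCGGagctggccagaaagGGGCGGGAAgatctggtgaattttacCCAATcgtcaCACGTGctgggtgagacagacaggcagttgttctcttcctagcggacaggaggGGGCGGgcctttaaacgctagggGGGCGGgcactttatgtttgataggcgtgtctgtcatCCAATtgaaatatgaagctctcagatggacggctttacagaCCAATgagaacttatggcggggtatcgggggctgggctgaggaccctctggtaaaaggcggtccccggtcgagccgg
It held 4 GC boxes, 3 CCAAT boxes, 1 E-box at -181 and 1 E2F match at -215 that overlaps a GC box at -217. It was the only 1 of the 5 promoters shown with the E2F or E-box letters.

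**Figure D2:**
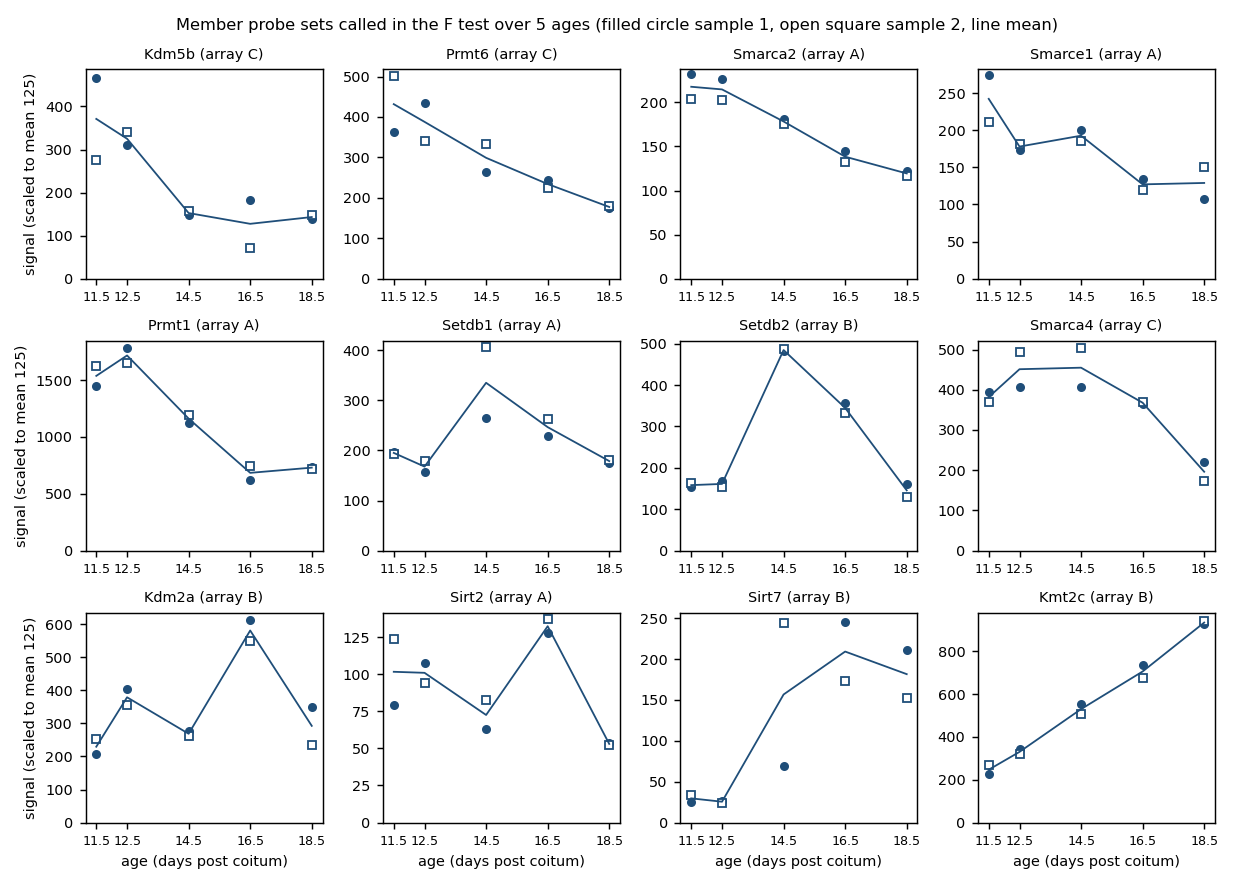
Signal (y axis, scaled by the authors to an array mean of 125) by age (x axis, days post coitum) for the 12 member probe sets called in the F test, with sample 1 as filled circles, sample 2 as open squares and a line through the means. Kdm5b, Prmt6, Smarca2 and Smarce1 are highest at 11.5 dpc, Setdb2 stands at 481.1 and 487.9 at 14.5 dpc, and Kmt2c climbs to 926.3 and 942.9 at 18.5 dpc.

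The demethylases had 2 probe sets higher and 2 lower late of 26 tested (10.5% and 9.59% of all tested probe sets). Both directions included Kdm5b, an eraser of H3 lysine 4 trimethylation. Its array A probe set gave 114.9 and 99.0 at 11.5 dpc, 76.8 and 80.2 at 12.5 dpc, 107.5 and 155.1 at 14.5 dpc, 170.2 and 184.1 at 16.5 dpc, then 115.8 and 229.5 at 18.5 dpc. Its late samples lay above its early ones, by less than 1 unit of signal at the closest pair (log2 change 0.79 ± 0.19, adjusted p = 0.01). Its array C probe set gave 466.5 and 275.8, then 309.5 and 340.7, 147.9 and 157.2, 183.8 and 71.3, and 138.8 and 147.8 in age order. There every late sample lay below every early one (-1.30 ± 0.27, adjusted p = 0.0052). That second probe set carries an r in its suffix and may not be specific, and 2 more on array B were not called (0.02 ± 0.13 and 0.67 ± 0.35), so no single direction can be given for Kdm5b. Kdm4c, which removes H3 lysine 9 methylation, gave 148.8 and 144.8, then 112.4 and 104.4, 154.5 and 180.6, 206.7 and 181.2, and 184.9 and 204.7 in age order. All its late samples lay above its early ones (0.56 ± 0.15, adjusted p = 0.02), and the call was lost without 12.5 dpc replicate 2, 16.5 dpc replicate 1 or 18.5 dpc replicate 2 (0.06 to 0.072).

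Kdm5c, the X-linked relative of Kdm5b, gave on its called probe set 404.5 and 610.5 at 11.5 dpc, 778.3 and 545.3 at 12.5 dpc, 400.9 and 598.2 at 14.5 dpc, 422.5 and 377.2 at 16.5 dpc, then 310.3 and 370.6 at 18.5 dpc. Late and early samples overlapped in 1 early and 1 late sample (log2 change -0.61 ± 0.18, adjusted p = 0.029). The call was lost without 11.5 dpc replicate 2, 12.5 dpc replicate 1 or either sample of 16.5 or 18.5 dpc (0.052 to 0.13). Its 3 other tested probe sets were not called and differed in sign, at -0.25 ± 0.18, 0.48 ± 0.55 and 1.01 ± 0.61. Kdm2a, which removes H3 lysine 36 methylation, gave 206.6 and 252.7 at 11.5 dpc, 403.2 and 355.3 at 12.5 dpc, 275.8 and 261.9 at 14.5 dpc, 613.8 and 549.3 at 16.5 dpc, then 350.7 and 234.9 at 18.5 dpc. The 2 samples of 16.5 dpc stood above all others. It was 2.10-fold higher at 16.5 than at 14.5 dpc (1.07 ± 0.21, adjusted p = 0.042), a call lost without any single sample of 12.5 to 18.5 dpc (0.052 to 0.17), and its F test (adjusted p = 0.0076) was lost without 16.5 dpc replicate 1 (0.056). Its 2 other tested probe sets were not called and had the opposite sign in that step (-0.66 ± 0.23, adjusted p = 0.18, and -0.40 ± 0.46, adjusted p = 0.72), so the step rests on 1 probe set. Kdm3a, an eraser of H3 lysine 9 methylation that is needed for sex determination in mouse testis, was the brightest Kdm on array A. It gave 547.7 and 677.5, then 510.4 and 535.6, 536.4 and 553.2, 590.5 and 495.9, and 413.6 and 419.4 in age order, with both samples of 18.5 dpc lowest. It was lower at 18.5 than at 11.5 dpc (-0.53 ± 0.16, adjusted p = 0.039), a call lost without 11.5 dpc replicate 2 or either sample of 12.5 or 18.5 dpc (0.056 to 0.19) and under quantile normalization (0.096). Its probe set on array C had 0.71 ± 0.65 in that contrast and was not called.

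The Smarc genes had 5 probe sets lower and 2 higher late of 33 tested, with a median log2 change of -0.19. Over all tested probe sets, 9.59% were lower and 10.5% higher, with a median of -0.00. The higher ones were both of Smarca5, the ISWI ATPase. On array B Smarca5 gave 1054.3 and 809.5 at 11.5 dpc, 772.5 and 1004.9 at 12.5 dpc, 1097.1 and 1531.8 at 14.5 dpc, 1326.8 and 1321.4 at 16.5 dpc, then 1652.0 and 1174.9 at 18.5 dpc. On array A it gave 152.8 and 140.0, then 134.2 and 135.2, 216.6 and 165.1, 176.2 and 223.8, and 213.0 and 199.5 in age order. In both, all late samples lay above all early ones (log2 changes 0.58 ± 0.17, adjusted p = 0.026, and 0.48 ± 0.13, adjusted p = 0.019), while another probe set on array A had 0.17 ± 0.12 and was not called. The array B call was lost without 11.5 dpc replicate 2, 12.5 dpc replicate 1, either sample of 16.5 dpc or 18.5 dpc replicate 1 (0.065 to 0.13), and the array A call without either sample of 12.5 dpc, 16.5 dpc replicate 2 or 18.5 dpc replicate 1 (0.055 to 0.086). Smarca1, the other ISWI ATPase, had 1 of 3 tested probe sets lower, and the others were not called. Of these, 1 with an f in its suffix had 0.20 ± 0.18, with all late samples above all early ones. The last had -0.11 ± 0.28, so no single direction can be given for Smarca1. Its signals on the called one were 188.2 and 277.1, then 345.8 and 262.2, 212.1 and 154.4, 214.7 and 185.7, and 90.9 and 145.0 in age order. The groups overlapped and the suffix carries an r (-0.73 ± 0.23, adjusted p = 0.044). The call was lost without 11.5 dpc replicate 2, either sample of 12.5 or 16.5 dpc, 14.5 dpc replicate 1 or 18.5 dpc replicate 1 (0.05 to 0.16).

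Both SWI/SNF ATPases had a probe set that fell. Smarca2 (BRM) gave on array A 231.6 and 203.6 at 11.5 dpc, 226.6 and 202.6 at 12.5 dpc, 181.5 and 175.0 at 14.5 dpc, 144.9 and 131.8 at 16.5 dpc, then 122.2 and 116.5 at 18.5 dpc. Samples of each age from 14.5 dpc on lay below both samples of every earlier age. It averaged 129 ± 12.4 late and 216 ± 15.2 early (SD, n = 4 each), a log2 change of -0.68 ± 0.11 or 1.60-fold lower (adjusted p = 0.0013). Its probe sets on arrays B and C had -0.04 ± 0.24 and -0.28 ± 0.25, and neither was called. Smarca4 (BRG1) was called with a probe set of array C, and its timing against that of Smarca2 was not tested. Its called array C probe set gave 393.3 and 370.0 at 11.5 dpc, 407.0 and 495.0 at 12.5 dpc, 405.6 and 504.0 at 14.5 dpc, 364.8 and 370.6 at 16.5 dpc, then 219.8 and 172.5 at 18.5 dpc. Only the 2 samples of 18.5 dpc stood clearly apart, below all others, and a late sample of 16.5 dpc overlapped the early ones. Its array A probe set, the brightest Smarc there, gave 560.7 and 478.3, then 697.9 and 492.4, 571.4 and 581.3, 550.1 and 591.5, and 364.6 and 372.0 in age order. All 3 tested Smarca4 probe sets had their lowest mean at 18.5 dpc, with log2 changes for 18.5 against 11.5 dpc of -0.91 ± 0.24 (adjusted p = 0.025), -0.47 ± 0.17 (0.091) and -0.81 ± 0.27 (0.062). The last of these carries an f in its suffix and may not be specific. A further probe set on array A, too dim to be tested, was highest at 18.5 dpc (30.5 and 29.1). Late against early, the array C probe set had -0.60 ± 0.17 (adjusted p = 0.027), lost without 11.5 dpc replicate 1, 12.5 dpc replicate 2, either sample of 16.5 dpc or 18.5 dpc replicate 2 (0.057 to 0.11). Its F test (adjusted p = 0.025) was lost without 12.5 dpc replicate 2 or either sample of 18.5 dpc (0.062 to 0.19), and its 18.5 against 11.5 dpc call without any single sample of these 2 ages (0.055 to 0.16).

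Of the smaller SWI/SNF subunits, Smarce1 (BAF57) and Smarcd3 (BAF60C) each had 1 probe set that fell. Smarce1 gave on array A 273.7 and 210.8 at 11.5 dpc, 173.9 and 182.1 at 12.5 dpc, 200.4 and 184.9 at 14.5 dpc, 134.5 and 119.7 at 16.5 dpc, then 107.7 and 150.3 at 18.5 dpc. All late samples lay below all early ones (128 ± 18.4 late, 210 ± 45.2 early, SD, n = 4 each; log2 change -0.64 ± 0.14, adjusted p = 0.0058), and its array C probe set had -0.43 ± 0.41 (adjusted p = 0.52). Smarcd3 gave on its called probe set 320.3 and 309.1, then 322.4 and 311.6, 244.2 and 355.6, 279.7 and 267.9, and 185.1 and 160.0 in age order. Its late samples lay below its early ones (-0.51 ± 0.15, adjusted p = 0.028), a call lost without 11.5 dpc replicate 1 or any single sample of 12.5, 16.5 or 18.5 dpc (0.054 to 0.1). Another Smarcd3 probe set on array B had -0.26 ± 0.21, and one on array C with an f in its suffix had 0.24 ± 0.17 with all late samples above all early ones. Neither was called, so no single direction can be given for Smarcd3. The core subunits Smarcb1, Smarcc1 and Smarcc2, and Smarcd1 and Smarcd2, had no probe set called. Smarcc1 on array B came closest, at -0.58 ± 0.20 (adjusted p = 0.057), with all late samples below all early ones.

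Of 14 tested BAF and PBAF subunits outside the Smarc names, 5 were lower and 0 higher late by limma (at an unadjusted p under 0.05, 6 and 1). Among all 12589 tested genes, read the same way, 13.1% were higher and 11.4% lower (20% and 18.1% at the unadjusted threshold). The actin-like subunit Actl6a had 231.7, 210.6, 224.3 and 271.7 late and 439.9, 388.4, 392.3 and 473.4 early, with no overlap (log2 change -0.81 ± 0.12, adjusted p = 4.9e-04). Bcl7c (-0.77 ± 0.14, adjusted p = 0.0018), Ss18 (-0.62 ± 0.13, adjusted p = 0.0066) and the PBAF subunit Pbrm1 (-0.55 ± 0.14, adjusted p = 0.016) also fell without overlap, and Dpf3 fell with overlap (-1.06 ± 0.22, adjusted p = 0.0046). Leaving out 1 sample at a time gave 4 to 6 lower genes, since Pbrm1 was lost without 12.5 dpc replicate 1, 16.5 dpc replicate 2 or 18.5 dpc replicate 2 (0.056 to 0.069), while the other 4 kept their calls. Summed proliferation markers were 1931 to 2252 late and 3618 to 4832 early over the same samples, and their part in these falls was not tested.

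**Figure D3:**
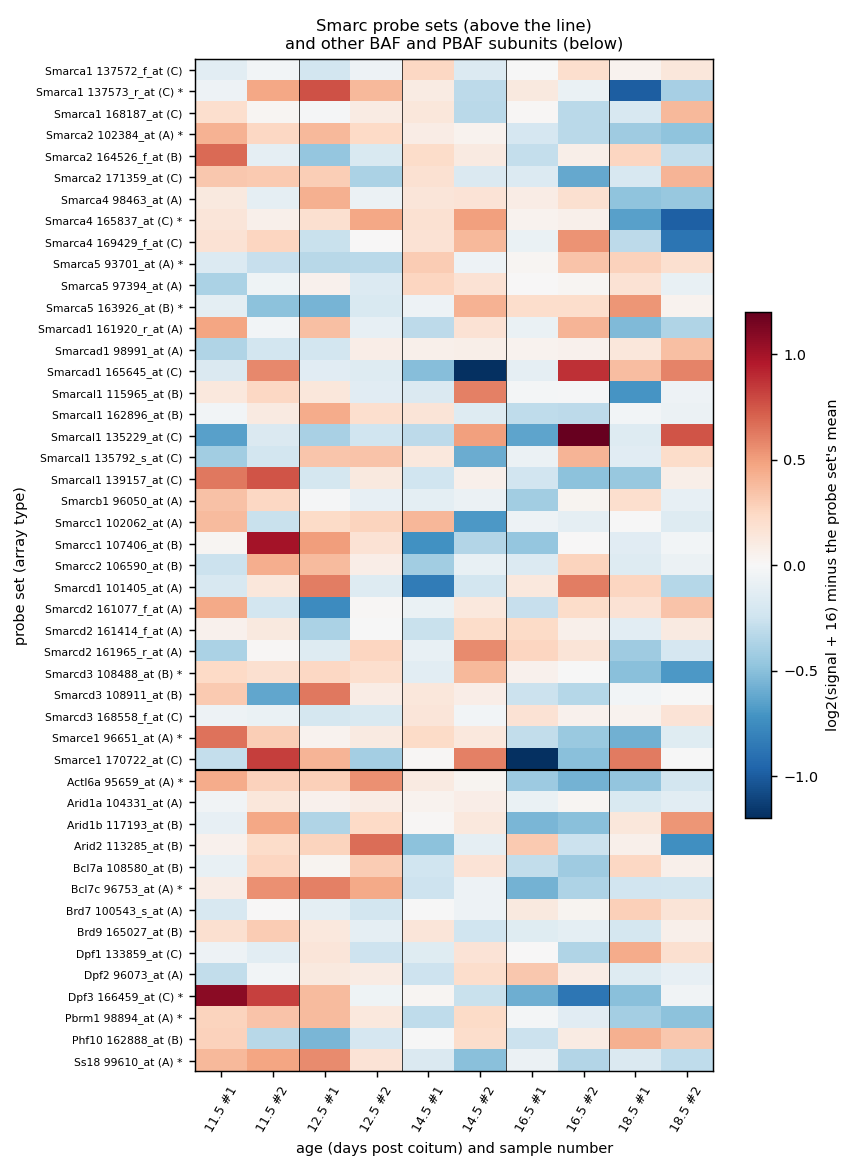
Heat map of log2(signal + 16) minus each probe set's own mean (colour) for 33 Smarc probe sets and, below the line, 14 other BAF and PBAF subunits (y axis), in the 10 samples ordered by age and sample number (x axis), with a star for an adjusted p under 0.05 late against early. The starred probe sets of Smarca2, Smarce1 and Actl6a run from red in early to blue in late samples, and the probe sets of Smarca4 turn blue at 18.5 dpc.

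The other lists of partners had 1 to 6 called genes each, to be read against the 13.1% higher and 11.4% lower among all tested genes. Of 19 tested HDAC complex partners Sap30 (-0.76 ± 0.16, adjusted p = 0.0052) and Mbd3 (-0.41 ± 0.12, adjusted p = 0.028) were lower and none higher, also at an unadjusted p under 0.05. Of 12 acetyltransferases Ncoa1 was higher (1.00 ± 0.18, adjusted p = 0.0016) and Kat2a and Kat7 were lower (-0.93 ± 0.26 and -0.65 ± 0.13). Of 10 subunits of the COMPASS family of methyltransferase complexes, Ash2l (-1.23 ± 0.24, adjusted p = 0.0035) and Cxxc1 (-0.75 ± 0.16, adjusted p = 0.0065) were lower. None was higher, also unadjusted. The Cxxc1 probe set carries an f in its suffix and may not be specific. Of 11 other methyltransferases Nsd3 was higher (0.58 ± 0.14, adjusted p = 0.011) and none lower, also unadjusted. Of 9 other demethylases and JmjC proteins Riox1 and Hspbap1 were lower (-0.62 ± 0.15 and -1.48 ± 0.35) and none passed as higher (3 at an unadjusted p under 0.05). Of 23 other remodellers Bptf, Cecr2 and Chrac1 were higher (0.72 ± 0.18, 1.12 ± 0.34 and 0.43 ± 0.13) and Ino80c, Ruvbl1 and Atrx were lower (-0.66 ± 0.18, -0.74 ± 0.12 and -0.86 ± 0.13). Bptf and Chrac1 encode subunits of ISWI remodelling complexes, whose subunits were not examined as a set. Single left-out samples ended the calls of Mbd3 (11.5 dpc replicate 1, 12.5 dpc replicate 1, 16.5 dpc replicate 2 or either of 18.5 dpc, adjusted p = 0.05 to 0.11), Kat2a (11.5 dpc replicate 2 or replicate 1 of 12.5, 16.5 or 18.5 dpc, 0.058 to 0.099) and Nsd3 (12.5 dpc replicate 1, 0.053). They also ended those of Cecr2 (11.5 dpc replicate 2, 16.5 dpc replicate 2 or either of 12.5 or 18.5 dpc, 0.064 to 0.12), Chrac1 (replicate 1 of 11.5 or 12.5 dpc or any of 16.5 or 18.5 dpc, 0.066 to 0.13) and Ino80c (replicate 1 of 11.5, 12.5, 16.5 or 18.5 dpc, 0.057 to 0.083).

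**Figure D4:**
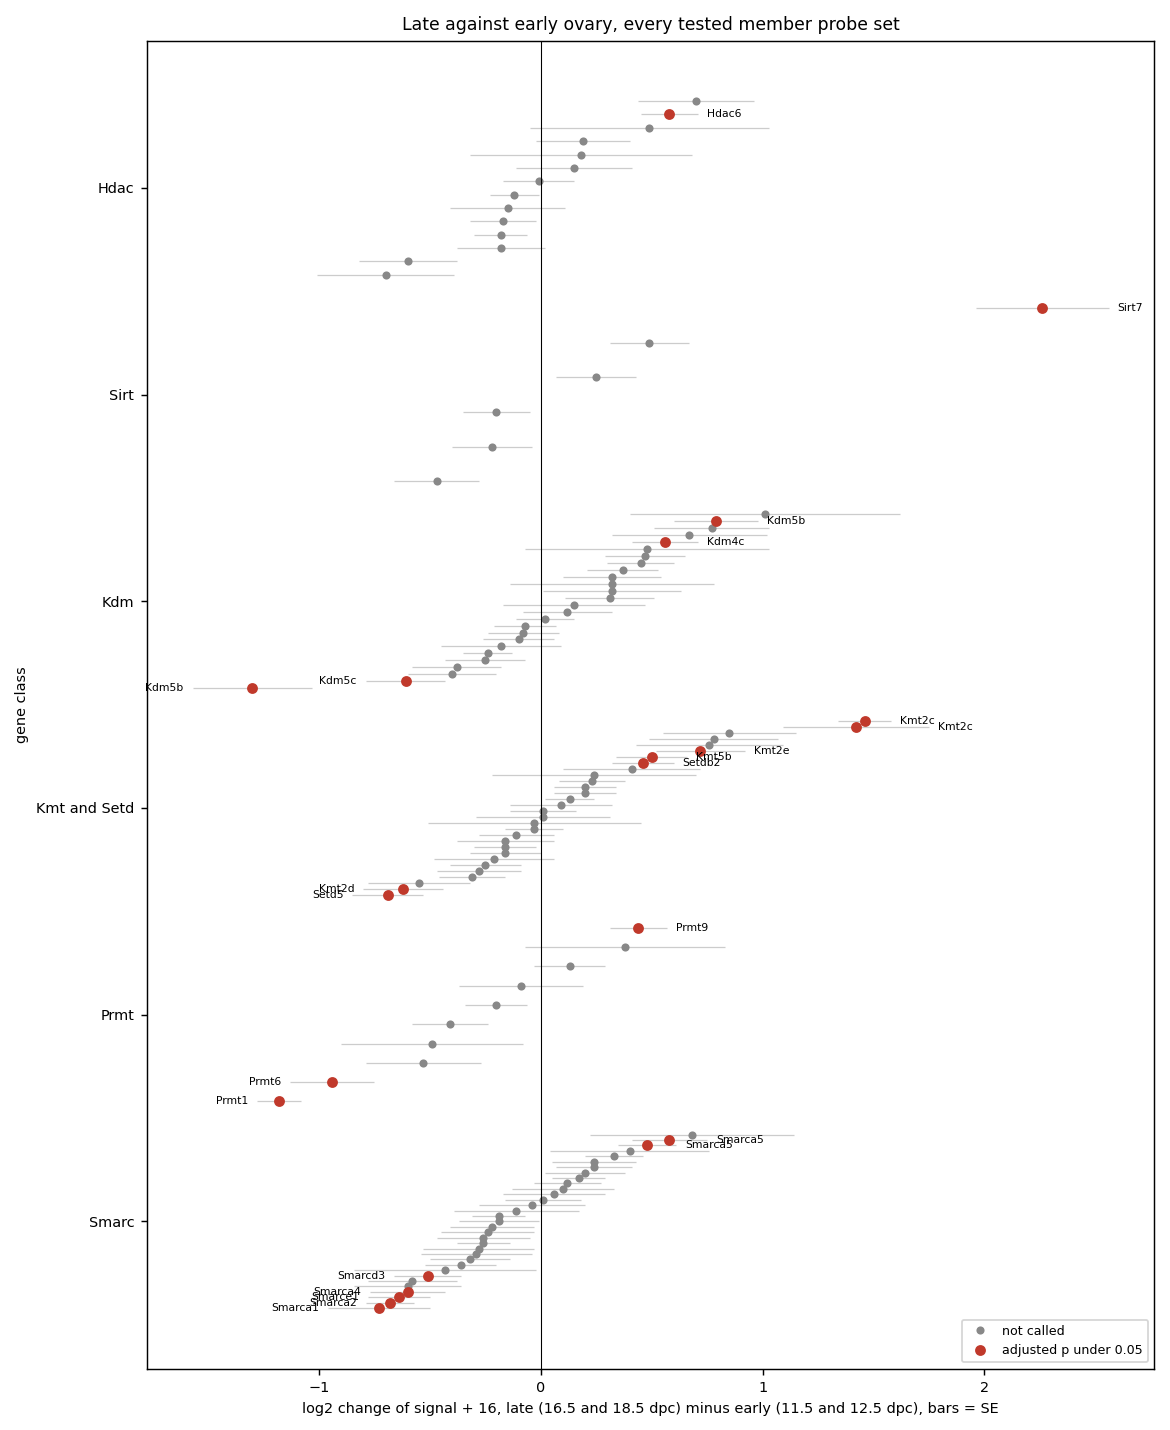
Log2 change of signal + 16, late minus early (x axis, bars are SE), for each of the 119 tested member probe sets by gene class (y axis), with called probe sets in red and named. Sirt7 lies farthest right at 2.26 and a Kdm5b probe set farthest left at -1.30, and most points lie near 0.

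Between neighbouring ages few members were called. In 12.5 against 11.5 dpc none was higher (0.197% of all tested probe sets) and none lower (0.0282%) by limma, while at an unadjusted p under 0.05 8 of the 119 were higher (7.46% of all) and 0 lower (4.98% of all). In 14.5 against 12.5 dpc 3 were higher (Setdb1, Setdb2 and Sirt7, 2.52% of members, against 1.08% of all) and none lower (0.576% of all, and unadjusted 8 members against 7.42% of all). In 16.5 against 14.5 dpc 1 was higher, Kdm2a (0.84%, against 0.294% of all), and 1 lower, Prmt1 (0.84%, against 0.395% of all). In 18.5 against 16.5 dpc 2 were lower, Setdb2 and Sirt2 (1.68%, against 0.193% of all), and none higher (0.431% of all, and unadjusted 3 members against 6.3% of all). At an unadjusted p under 0.05, 18 of the 119 were lower in that last step (6.78% of all), and the median log2 change was -0.13 over the members and -0.01 over all tested probe sets. Counts this small rest on single genes, and Setdb2 at 14.5 against 12.5 dpc was the 1 interval call kept under every setting tried.

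Over the whole course, 18.5 against 11.5 dpc, 6 member probe sets were higher (5.04%, against 7.59% of all) and 9 lower (7.56%, against 6.87% of all). The higher ones were of Hdac6, Kmt2c, Kmt2e, Kmt5b, Setd4 and Sirt7, and the lower ones of Kdm3a, Kdm5b, Prmt1, Prmt6, Sirt2, Smarca2, Smarca4, Smarcd3 and Smarce1. Kmt2c was 3.63-fold higher (log2 change 1.86 ± 0.18, adjusted p = 2.6e-05) and Prmt1 was 2.08-fold lower (-1.06 ± 0.15, adjusted p = 6.1e-04), and these 2 calls were kept under every setting tried. Single left-out samples of 11.5 or 18.5 dpc ended the calls of Hdac6 (11.5 dpc replicate 1 or either of 18.5 dpc, adjusted p = 0.099 to 0.11), Kmt2e (any of the 4, 0.055 to 0.23), Prmt6 (11.5 dpc replicate 2 or either of 18.5 dpc, 0.054 to 0.066) and Smarcd3 (11.5 dpc replicate 1 or either of 18.5 dpc, 0.069 to 0.14). They also ended those of Smarce1 (replicate 1 of 11.5 or 18.5 dpc, 0.07 to 0.14), Sirt7 (18.5 dpc replicate 1, 0.059) and Smarca2 (18.5 dpc replicate 2, 0.059). Kdm5b on array C (-1.24 ± 0.39, adjusted p = 0.049) lost this call without 11.5 dpc replicate 1 or any single sample of 12.5, 14.5 or 18.5 dpc (0.065 to 0.26). Setd4, a SET-domain methyltransferase, was dim, with 86.7 and 67.6 at 18.5 dpc against 24.6 and 14.5 at 11.5 dpc (1.40 ± 0.42, adjusted p = 0.043). Only both samples of 18.5 dpc and 14.5 dpc replicate 1 (57.8) reached the signal minimum of the filter. This probe set thus passed the filter only through samples in which it was high. The size of its change depends on the 16 added before the log. The Setd4 call was lost without any single sample of 11.5, 12.5 or 18.5 dpc or 16.5 dpc replicate 2 (0.052 to 0.23). The other tested probe set of Setd4 had 0.75 ± 0.65. Among the 12 probe sets called in the F test, the highest mean fell at 11.5 dpc in 4 (Kdm5b, Prmt6, Smarca2 and Smarce1), at 12.5 dpc in Prmt1, at 14.5 dpc in 3 (Setdb1, Setdb2 and Smarca4), at 16.5 dpc in 3 (Kdm2a, Sirt2 and Sirt7) and at 18.5 dpc in Kmt2c. The F calls of Kmt2c, Prmt1, Setdb2 and Sirt7 were kept under every setting tried. Those of Smarca2 (adjusted p = 0.014), Smarce1 (0.03), Prmt6 (0.034) and Kdm5b (0.039) were not: Smarca2 lost it without either sample of 18.5 dpc (0.065 to 0.073), Smarce1 without replicate 1 of any age or replicate 2 of 12.5 or 16.5 dpc (0.052 to 0.081). Prmt6 lost it without 11.5 dpc replicate 2 or any single sample of 12.5, 16.5 or 18.5 dpc (0.053 to 0.12), and Kdm5b without 11.5 dpc replicate 1 or any of 12.5, 14.5 or 18.5 dpc (0.067 to 0.098).

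Some calls were also lost under settings that kept all samples. Without the intensity trend, which lets limma's spread vary with signal, the late-against-early calls of Kdm5c, Kmt2d, Kmt2e, Kmt5b, Prmt9, Setd5, Setdb2, Smarca1, Smarca4, Smarca5 on array B and Smarcd3 were lost (adjusted p = 0.063 to 0.083). The same setting ended the 18.5 against 11.5 dpc calls of Kdm3a, Kdm5b, Kmt2e, Kmt5b, Smarca4 and Smarcd3 (0.053 to 0.12). It ended the F calls of Kdm5b, Prmt6, Setdb1, Smarca4 and Smarce1 (0.057 to 0.1) and every call between neighbouring ages except that of Setdb2 at 14.5 against 12.5 dpc (0.061 to 0.12). Without the filter on low signal, Kmt5b and Smarca1 lost their late-against-early calls (0.062 and 0.065), and Kdm5b, Prmt6 and Sirt2 their F calls (0.055 to 0.07). That setting also ended the 18.5 against 11.5 dpc calls of Kdm5b, Kmt2e, Kmt5b, Setd4 and Sirt2 (0.05 to 0.081) and the steps of Kdm2a, Prmt1, Setdb1, Sirt2 and Sirt7 (0.056 to 0.089). A pseudocount of 4 ended the 18.5 against 11.5 dpc calls of Setd4 and Kdm5b (0.069 and 0.057) and the last step of Sirt2 (0.058). The call of Sirt7 at 14.5 against 12.5 dpc was lost with a pseudocount of 64 (0.067) or quantile normalization (0.059), and that of Setd4 with quantile normalization (0.078).

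Probe sets of 1 gene often differed in sign. Of 29 genes with 2 or more tested probe sets, 11 had all of them on the same side of 0 late against early (37.9%, against 52.1% of all 5016 such genes) and 18 did not. These members had a mean of 2.90 tested probe sets, against 2.56 over all such genes. With exactly 2 probe sets, both lay on 1 side in 6 of 12 members and in 61.2% of 3153 genes. Kmt2c was the only gene with 2 or more tested probe sets all called in 1 direction. Hdac6, Prmt1, Setdb2 and Sirt7, among others, had a single probe set, so their changes could not be compared between probe sets. Kmt5b had 1 of 5 tested probe sets called late against early and another, on array C, called in 18.5 against 11.5 dpc (1.36 ± 0.42, adjusted p = 0.046), with 855.6 to 948.3 at 18.5 dpc and 200.2 to 575.6 at 11.5 dpc. That second call was lost without 11.5 dpc replicate 2, either sample of 14.5 or 16.5 dpc, or either sample of 18.5 dpc (0.061 to 0.31). Kdm5b was the only gene with probe sets called in opposite directions.

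**Figure D5:**
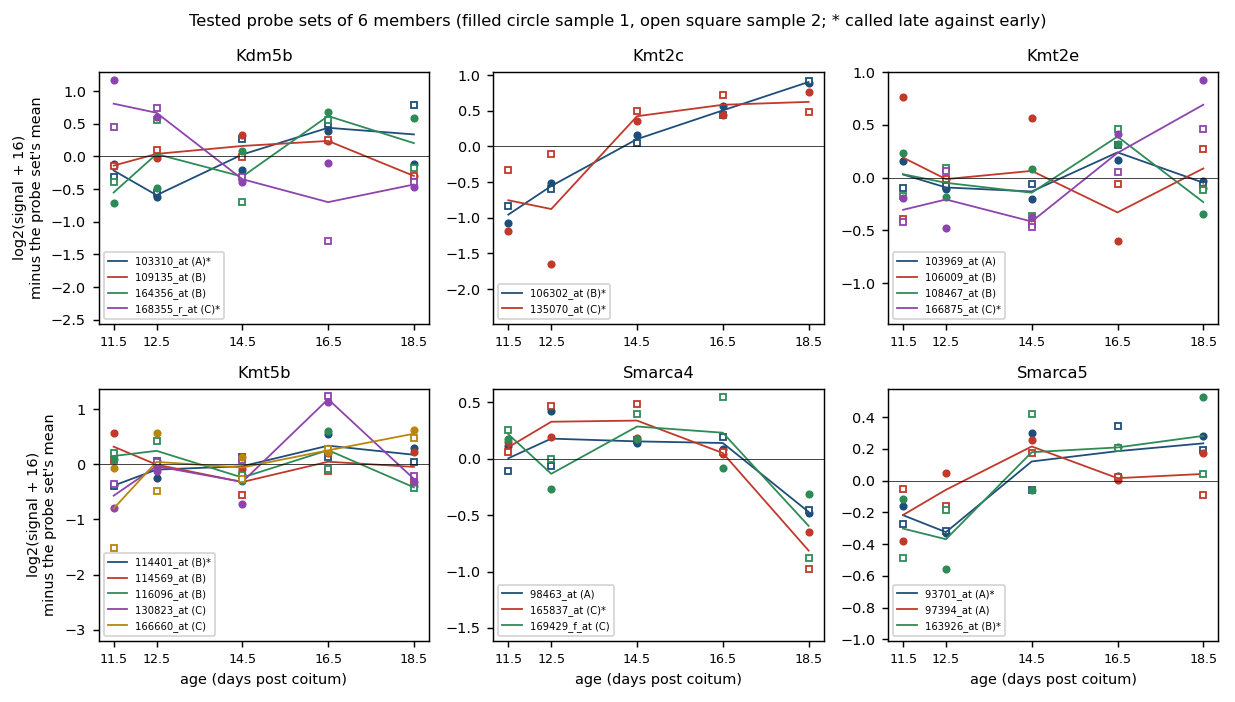
Log2(signal + 16) minus each probe set's own mean (y axis) by age (x axis, days post coitum) for all tested probe sets of 6 members, 1 colour per probe set, with sample 1 as filled circles, sample 2 as open squares and lines through the means. Both Kmt2c probe sets climb together, the Kdm5b probe sets cross, and the 3 Smarca4 probe sets drop at 18.5 dpc.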

How the data were processed

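Total RNA of pooled embryonic ovaries was measured on 30 arrays, 10 of each of 3 types. The deposited values are signal intensities that the authors had scaled, per the labels, to a mean of 125. Their software is not stated in the labels. From these, log2(signal + 16) was computed, probe sets with a signal of 50 on at least 2 of 10 arrays were kept, and limma 3.58.1 in R 4.3.3 (lmFit, eBayes with an intensity trend) fitted 5 age means per array type, with 5 residual degrees of freedom. P-values were Benjamini-Hochberg adjusted over the 3 types together. The number of arrays limits the precision. The procedure was also run on simulated data in which some probe sets rose late by a single fixed amount. That amount was larger than nearly all called member changes, so the run does not bear on smaller ones. Symbols come from the platform annotation, and promoters (57 of 67 members had an entry) and symbol checks from RefSeq (GRCm38.p6). A probe set with several symbols, including Kdm6b, was left out.

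The members and gene lists were chosen with earlier results of these data known. Values are given for members called in the F test or in late against early, and for the brightest member of each class on array A; other members are named where they were called in another comparison, and Hdac1, Kmt2a, Smarcc1 and Stra8 were added after their values were seen. Alternatives were the pseudocount, the filter, quantile normalization, the trend, a replicate block and leaving out each sample with its 3 arrays. A restriction by probe set suffix was not among them. Same-numbered samples did not deviate together: over 30 pairs of ages and array types the correlation of deviations was -0.161 to 0.219, above 0.1 in 1, so the numbers were not used as pairs.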

Additional observations from a re-analysis of the deposited data

How the results depend on the processing

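No called change of a member turned its sign in 764 refits over the 6 contrasts. Only changes already called were refitted, on all or most of the same samples, so this outcome was likely from the start. Of the 23 probe sets called late against early, 10 of 8 genes remained called under all 17 alternatives (Hdac6, both Kdm5b probe sets, both of Kmt2c, Prmt1, Prmt6, Sirt7, Smarca2 and Smarce1), and 13 lost the call under at least 1. In 391 refits of the late-against-early change of 23 named genes, 308 stayed on their side of the threshold, 79 lost the call and 4 gained it. Without the intensity trend the calls numbered 14 late against early (23 with it), 9 in 18.5 against 11.5 dpc (15), 7 in the F test (12), 1 in 14.5 against 12.5 dpc (3), 0 in 16.5 against 14.5 dpc (2) and 0 in 18.5 against 16.5 dpc (2). Without the filter on low signal they were 1, 0 and 1 in these last 3 comparisons, and a pseudocount of 4 left 1 in 18.5 against 16.5 dpc. With a replicate block they were 1 in 16.5 against 14.5 dpc, 1 in 18.5 against 16.5 dpc, 24 late against early and 12 in the F test. The block ended the late-against-early calls of Kmt5b (adjusted p = 0.06) and Smarca1 (0.057), that of Kdm3a in 18.5 against 11.5 dpc (0.052) and the steps of Sirt7 (0.056), Prmt1 (0.052) and Sirt2 (0.056). Leaving out 1 sample at a time gave 13 to 26 calls late against early (13 without 18.5 dpc replicate 1), 4 to 15 in 18.5 against 11.5 dpc, 6 to 16 in the F test, 1 to 7 in 14.5 against 12.5 dpc, 0 to 2 in 16.5 against 14.5 dpc, 0 to 2 in 18.5 against 16.5 dpc and 0 to 1 in 12.5 against 11.5 dpc. The causes were not tested, beyond the fewer samples of the last set. With 2 samples per age and 1 spread shared over ages, changes near the threshold cannot be told from sample spread, and members under the signal minimum were measured but not tested.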
